A study of Mus musculus with 2 samples.

Results

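The cells described here are aortic B cells of atherosclerotic mice that carried at least 2 transcript counts over 5 genes, Mzb1, Zbtb32, Fam43a, Tppp3 and Ankrd33b, and that bear the working name innate-like B cells. Counts are unique molecular identifiers (UMIs), each standing for 1 captured RNA molecule. Of 2986 cell barcodes in all, 251 were members: 190 in the library from mice on WD and 61 in the library from mice on chow. They were set against 386 other B cells, 300 on WD and 86 on chow, that had at most 1 such count. A barcode counted as a B cell where it held at least 200 genes, at most 10% mitochondrial UMIs, at least 3 UMIs of Cd79a, Cd79b and Ms4a1 together, at most 1 UMI of Cd3d, Cd3e and Cd3g, at most 2 of C1qa, C1qb and C1qc and at most 2 of Lyz2. Membership was thus set by measured levels of the 5 genes in these same cells, and those levels are given as a description. No test was made: each diet is represented by 1 library of 10 pooled aortas, and animals cannot be told apart within it.

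All mice were ApoE-/- on the C57BL6/J strain, the controls included. One group was fed WD, an abbreviation that the labels do not spell out, and the control group was fed chow. ApoE-deficient mice lack apolipoprotein E, carry high blood cholesterol and form plaques in the aorta. Viable CD45+ leukocytes were sorted from enzyme-digested aortas and up to 10000 cells were loaded per diet on the 10x Genomics 3' v2 system.

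Innate-like B cells is a collective name for B cells, mainly the B-1 and marginal zone kinds, that respond quickly, without help from T cells, and produce much of the natural IgM. Mzb1 encodes a chaperone of the endoplasmic reticulum that helps antibody assembly and secretion, and it is abundant in B-1, marginal zone and antibody-secreting cells. Zbtb32 encodes a zinc finger transcription repressor that restrains memory B cell responses in mice. In atherosclerosis, natural IgM from B-1 cells against oxidized lipids is regarded as protective in mouse models. Follicular B cells, which recirculate through lymphoid tissue, have been tied to both outcomes.

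Among B cells, the members were as frequent in both libraries within counting error. They made up 38.8% of WD B cells (190 of 490, exact binomial 95% interval 34.4% to 43.2%) and 41.5% of chow B cells (61 of 147, 33.4% to 49.9%). Of all cells kept they were 9.22% on WD (8.0% to 10.6%) and 6.81% on chow (5.25% to 8.66%), and these intervals cover counting error only. With each cell reduced to 1500 UMIs before the 5 genes were read, the share of B cells was 21.9% on WD and 19.0% on chow. The order of the diets was thus not kept, and since the intervals of the full counts overlapped, nothing is read from either order. The members held more RNA counts than the other B cells, with a median of 2953.5 UMIs per cell against 2251 on WD and of 3742 against 2509.5 on chow. A cell with more UMIs reaches 2 counts more easily, and the part of depth in the comparisons below was not tested beyond the values at 1500 UMIs given beside them. The 2 libraries held 2077 WD and 909 chow barcodes with 8782901 and 4608033 UMIs. They shared 3 barcodes, none of them a member, and Scrublet called none of the B cells a doublet. It called 0.0963% of WD and 0.440% of chow barcodes, too few for the call to be relied on.

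The B cell genes that the gate used lay within 1.5-fold of the other B cells. Cd79a, which encodes a signalling chain of the B cell receptor, stood at a log2 ratio of innate-like over other B cells of −0.27 on WD and −0.03 on chow. Cd79b, its partner, stood at 0.47 and 0.38, and Ms4a1, which encodes CD20, at −0.02 and 0.12. As ratios, the counting interval lay above 1 for Cd79b in both libraries (1.20 to 1.59 on WD, 1.01 to 1.68 on chow) and below 1 for Cd79a on WD (0.771 to 0.891). All ratios compare UMIs summed over the cells of a group, scaled to 1000000 UMIs (CPM), with 0.5 UMIs added before scaling, in proportion to each group's total, so a ratio against a group at 0 UMIs is set by the added count. The name of the cells was checked against B-1 genes outside the gate and the rule. S100a6, the one with the highest WD ratio, was read in 36 of 190 WD and 13 of 61 chow members, so the name innate-like stands here only for cells chosen by the rule.

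Of the 5 genes, Mzb1 admitted most members. Mzb1 summed to 544 UMIs in 172 of 190 WD members and to 183 UMIs in 54 of 61 chow members. In the other B cells it was read once each in 90 WD and 22 chow cells. It was the sole one of the 5 genes in 71 WD members (37.4%) and in 24 chow members (39.3%), and 3 members in each library carried all 5 genes. Fam43a gave 152 UMIs in 77 WD members and 55 UMIs in 28 chow members, against 22 and 9 UMIs in other B cells. Ankrd33b, an ankyrin repeat gene, gave 101 UMIs in 51 WD members and 26 UMIs in 14 chow members, against 10 and 2 UMIs in other B cells.

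The 2 scarcer genes were in few cells. Zbtb32 was read in 13 WD members (23 UMIs) and 7 chow members (12 UMIs), and in 0 of 300 WD and 0 of 86 chow other B cells. Tppp3, a tubulin-binding gene, was read in 22 WD members (120 UMIs) and 6 chow members (16 UMIs), and in 1 other B cell of each library. The share of members with Zbtb32 was 6.84% on WD and 11.5% on chow, against 1.44% and 1.83% of T cells, at a median T cell depth of 3258 and 3661 UMIs. Mzb1 was read in 1.32% of WD and 1.83% of chow T cells. The shares in members were set by the rule, and nothing is read from their size. Tppp3 is also a macrophage transcript in these files: it was read in 38.9% of WD and 46.7% of chow macrophages (median depth 5044 and 6047 UMIs), against 11.6% of WD and 9.84% of chow members.

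The 5 genes were also read 1 by 1. When a gene was left out of the rule and the cells were chosen by the other 4 genes, Zbtb32 was read in 6.35% of WD and 8.47% of chow cells so chosen, against 0.332% and 2.27% of the rest. Tppp3 was read in 10.6% and 6.78%, against 0.993% and 3.41%. Mzb1, the most abundant, was read in 73.9% of WD and 56.2% of chow cells chosen without it, against 50.1% and 51.1% of the rest. Fam43a was read in 27.1% and 29.8%, against 17% and 23.0%, and Ankrd33b in 18.7% and 17.5%, against 9.09% and 6.67%. The binomial intervals of both shares overlapped for each of the 5 genes on chow, and for Fam43a also on WD.

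The Zbtb32 promoter is shown because Zbtb32 names the population. No other B cell held it, but the rule allows those cells at most 1 UMI of the rule genes, so this is partly set by the rule. The sequence is the RefSeq window of 250 bases before to 50 bases after the start on GRCm38.p6, chr7:30598860-30599159, minus strand, printed in the direction of transcription. Capitals mark CCAAT, the box bound by the NF-Y complex, on the strand printed.
Zbtb32: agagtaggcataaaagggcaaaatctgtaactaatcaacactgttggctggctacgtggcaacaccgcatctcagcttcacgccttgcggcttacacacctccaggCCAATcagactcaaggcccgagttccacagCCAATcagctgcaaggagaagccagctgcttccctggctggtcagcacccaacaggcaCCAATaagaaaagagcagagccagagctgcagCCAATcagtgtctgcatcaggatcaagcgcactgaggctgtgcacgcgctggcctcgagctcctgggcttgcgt
The window holds 4 such boxes. CCAAT was searched on both strands: 37.4% of 32851 promoters of that length held at least 1 match and 1.06% held at least 4. Neither Fam43a (chr16:30599473-30599772, plus strand) nor Ankrd33b (chr15:31367710-31368009, minus strand) held CCAAT in the same window. The matches describe letters and not binding.

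Members differed widely in how many UMIs of the 5 genes they held. The median sum was 3 in both libraries and the highest 57 on WD and 25 on chow. A sum of 2, just inside the limit, was held by 80 WD and 29 chow cells, and a sum of 1, just outside, by 123 WD and 34 chow cells. At a sum of 3 to 4 there were 52 and 13 cells, and at 5 or more 58 and 19. On WD, S100a6 stood at 112 CPM at a sum of 2 and at 33.1 CPM at a sum of 1, Vim at 170 and 132 CPM, and Fcer2a at 211 and 228 CPM. On chow the same pairs were 431 and 41.6 CPM for S100a6, 221 and 249 CPM for Vim, and 188 and 332 CPM for Fcer2a. The Poisson intervals of Vim and of Fcer2a overlapped between these neighbouring sums in both libraries, and those of S100a6 did not. S100a6 UMIs lay in few cells, however, and the intervals of its share of cells overlapped: 8.75% and 4.07% on WD, and 20.7% and 11.8% on chow. At a sum of 3 to 4, S100a6 stood at 265 CPM on WD and at 0 UMIs in the 13 chow cells, so the chow level did not climb step by step with the sum. Ahnak was at 23.0 CPM on WD and also at 0 UMIs on chow there. At a sum of 5 or more S100a6 stood at 1252 CPM on WD and 1011 CPM on chow. Vim stood at 1209 and 951 CPM, and Ahnak at 215 and 173 CPM. These cells were also deeper, with a median of 4974 UMIs on WD and 5630 on chow. At 1500 UMIs per cell S100a6 was at 954 CPM and Vim at 1057 CPM on WD.

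**Figure D1:**
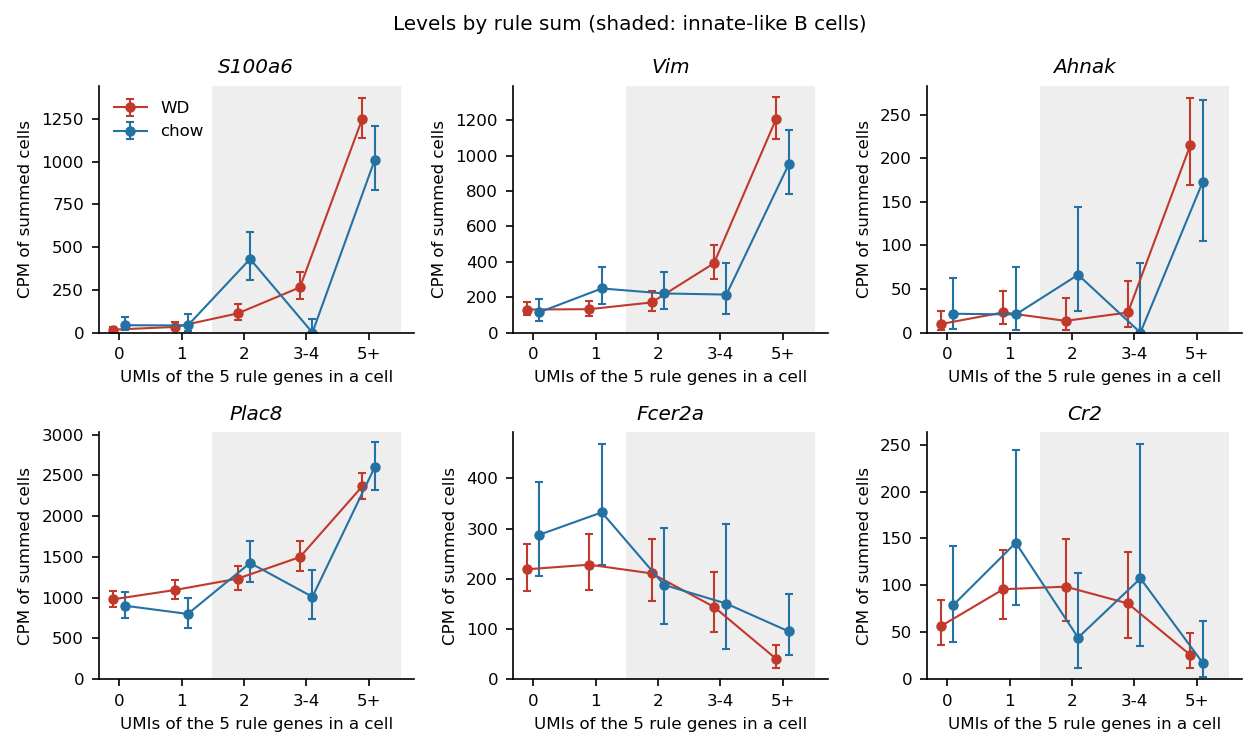
Level of 6 genes, in CPM of the cells summed, by the number of UMIs of the 5 rule genes in a cell (0 to 5 or more), in the WD library (red) and the chow library (blue), with exact Poisson 95% intervals. S100a6, Vim and Ahnak are highest at 5 or more UMIs in both libraries, Plac8 also, while Fcer2a and Cr2 are lowest there.

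A pair of expression patterns stood apart among the members, and most members showed neither. One pattern was marked by S100a6, which encodes a small calcium-binding protein, and the other by Jchain, which encodes the chain that joins IgM and IgA into multimers. The cuts for both, at least 2 UMIs of S100a6 and at least 3 UMIs of Jchain, were chosen after the values were seen, so all levels within them are descriptions. The S100a6-positive members numbered 31 on WD (16.3% of members) and 10 on chow (16.4%). The Jchain-positive members numbered 5 on WD (2.63%) and 2 on chow (3.28%). The remaining 154 WD and 49 chow members fell in neither. At least 2 UMIs of S100a6 were found in 1 of 300 WD and 2 of 86 chow other B cells. At least 3 UMIs of Jchain were found in 0 of 300 and 0 of 86, and by the limit of 3 counts this allows up to 1.00% and 3.49% of cells with that many UMIs.

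**Figure D2:**
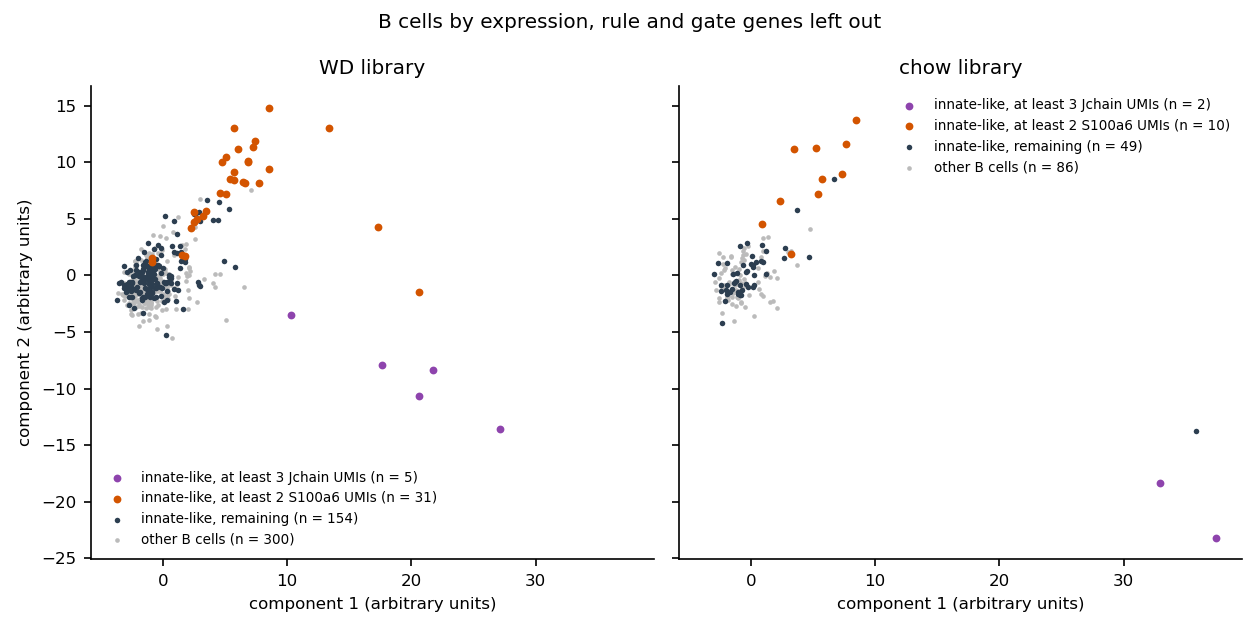
The first 2 principal components of all B cells on 1000 variable genes, with the rule and gate genes left out, in the WD library (left) and the chow library (right). Each point is a cell, and S100a6 and Jchain were among the genes used. Jchain-positive members (purple) lie at high component 1 and low component 2, most S100a6-positive members (orange) at high component 2, and the remaining members (black) largely overlap the other B cells (grey).

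The neighbours of each cell were found with the rule and gate genes left out. S100a6 and Jchain were kept in, so the closeness of cells marked by them is partly set by these genes. Among the 15 nearest B cells of a member, 49.2% were members, against 36.5% among those of other B cells and 39.4% of all B cells. Around S100a6-positive members, 85.0% of neighbours were members and 62.4% were S100a6-positive themselves, a class that makes up 6.44% of B cells. Around Jchain-positive members 63.8% were members. Around the remaining members 41.5% were members, close to the share in all B cells, and around those with a sum of 2 it was 39.3%. The neighbours give a description only.

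Across the 2553 genes with at least 20 UMIs in the B cells of each library, 33 genes (1.29%) were at least 2-fold higher in innate-like than in other B cells in both libraries. Only 3 genes (0.118%) were at least 2-fold lower in both, Hspa1a, Crisp3 and Ccl4. The filter is on all B cells together, so a gene scarce in other B cells passed only where members held its UMIs. The median log2 ratio of all these genes was 0.02 on WD and 0.03 on chow. The 15 genes with the highest mean ratio were S100a6, Anxa2, Tubb6, Lmna, Atf3, Lgals1, Pdlim1, Ahnak, Ass1, 2810417H13Rik, Jchain, Birc5, Cks2, Ube2c and Stmn1. Several of these turned: without cycling cells 2810417H13Rik, Birc5 and Ube2c stood at −1.56 and Stmn1 at −1.01 on chow, Ube2c stood at −1.40 on WD at 1500 UMIs per cell, and Jchain at −0.71 on WD without the Jchain-positive members. With 10 or more UMIs of the proliferation list taken to mark a cycling cell, and such cells left out, 16 genes were at least 2-fold higher, 13 of them among the 33. With 1500 UMIs per cell it was 6 genes of 1199 that could be measured, all 6 among the 33, and with cells holding any UMI of Cd3, C1q, Lyz2 or Dntt removed 5 genes of 1650, all 5 among the 33.

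**Figure D3:**
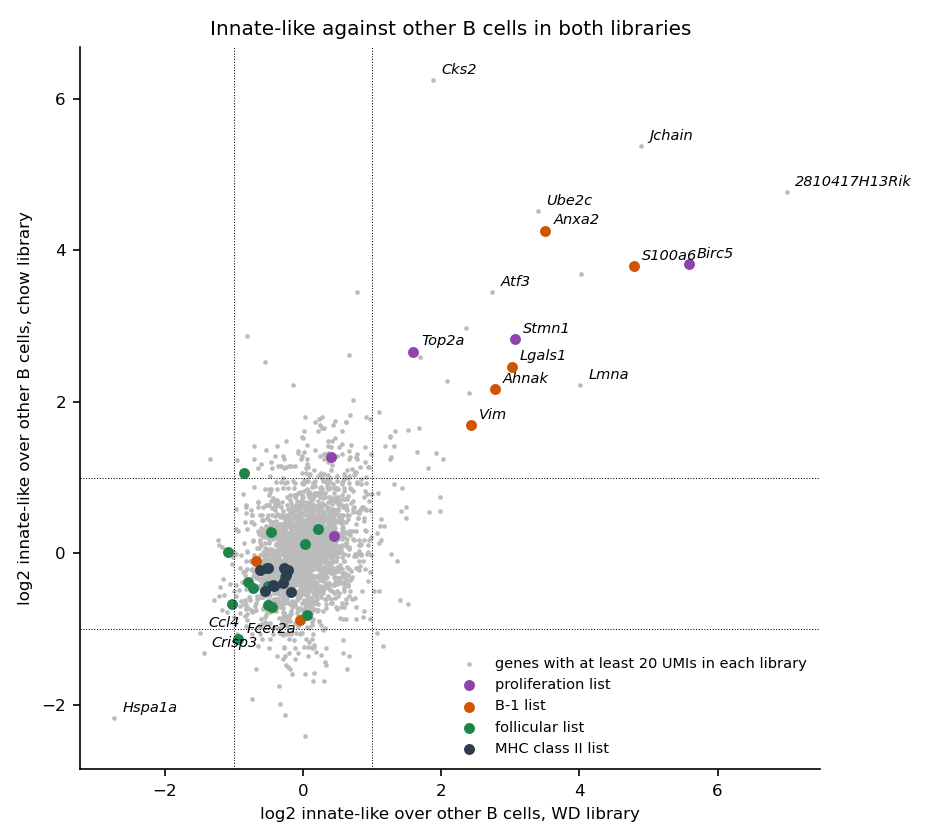
Log2 ratio of innate-like over other B cells for the 2553 genes measured, in the WD library (horizontal) and the chow library (vertical); each point is a gene, coloured where it belongs to 1 of 4 lists, and dotted lines mark 2-fold. B-1 list genes S100a6, Anxa2, Lgals1, Ahnak and Vim and proliferation genes lie upper right, and MHC class II genes lie in a tight group just below 0 on both axes.

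The B-1 list, genes that are known to mark B-1 cells in mice, had 17 genes, of which 7 passed the filter of 20 UMIs. On chow S100a6, Anxa2, Lgals1 and Ahnak passed only through their UMIs in members, so no count or median over the 7 is given as support. Summed over all 17 genes, the list stood at 2249 CPM in WD and 1891 CPM in chow members, against 423 and 476 CPM in other B cells.

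S100a6 had the highest WD ratio of the 7 genes. It summed to 508 UMIs in 36 of 190 WD members (681 CPM), against 17 UMIs in 12 of 300 other WD B cells (24.0 CPM). On chow it summed to 156 UMIs in 13 of 61 members (617 CPM), against 10 UMIs in 6 of 86 other B cells (42.5 CPM). The log2 ratios were 4.79 on WD and 3.80 on chow, and 4.51 and 3.44 at 1500 UMIs per cell. A minority of members thus carried nearly all of its UMIs in both libraries, and the highest single cell held 66 on WD and 37 on chow.

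The S100a6 promoter, at the same window, is shown for comparison with that of Zbtb32, since the Zbtb32 UMIs lay largely in members with S100a6: chr3:90612644-90612943, plus strand, GRCm38.p6, from RefSeq. Many members with S100a6 held no Zbtb32. Capitals mark CACGTG, an E-box, and ATTGG, the reverse of CCAAT.
S100a6: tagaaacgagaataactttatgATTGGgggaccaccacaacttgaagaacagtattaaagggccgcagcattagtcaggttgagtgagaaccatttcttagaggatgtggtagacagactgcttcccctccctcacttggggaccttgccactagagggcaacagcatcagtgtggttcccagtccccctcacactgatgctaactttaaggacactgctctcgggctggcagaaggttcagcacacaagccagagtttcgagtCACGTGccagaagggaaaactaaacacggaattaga
It holds 1 CACGTG and 1 CCAAT box on the opposite strand. CACGTG, which reads alike on both strands, was in 7.15% of the promoters, and in neither the Zbtb32, Fam43a nor Ankrd33b window. Both motifs were picked with the windows and the results in view.

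The other 6 B-1 genes that passed were Vim, Ahnak, Anxa2, Lgals1, Bhlhe40 and Pdcd1lg2. Vim, the intermediate filament vimentin, summed to 528 UMIs in 73 WD members (708 CPM) and 140 UMIs in 23 chow members (554 CPM), against 131 CPM in WD and 170 CPM in chow other B cells. Ahnak, a giant scaffold protein, stood at 110 CPM in WD and 103 CPM in chow members, against 15.5 and 21.3 CPM. Anxa2, a calcium-dependent membrane binder, stood at 87.2 and 119 CPM, against 7.05 and 4.25 CPM. Lgals1, which encodes galectin-1, stood at 233 and 127 CPM, against 28.2 and 21.3 CPM. These 4 were higher in members in both libraries. Bhlhe40, a transcription factor (log2 −0.04 on WD, −0.88 on chow) and Pdcd1lg2, which encodes PD-L2 (−0.69 and −0.10), were not.

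The other 10 B-1 genes did not pass the filter, and several were read mainly in members. Plscr1, a phospholipid scramblase, had 64 UMIs in WD and 17 UMIs in chow members, against 5 and 1 UMIs in other B cells. Itgb1, an integrin chain, had 42 and 10 UMIs, against 3 and 4. Cd9, a tetraspanin, had 26 and 10 UMIs, against 4 and 0. S100a4, a relative of S100a6, had 34 and 5 UMIs, against 3 and 1. Ctla4, an inhibitory receptor, had 17 and 9 UMIs, against 0 and 1. Bhlhe41, a transcription factor needed for B-1a cells in mice, had 15 and 5 UMIs, against 3 and 1. The defining surface genes were close to 0: Cd5, which marks B-1a cells, was read with 2 UMIs in WD members and 0 in chow members, and Spn, which encodes CD43, with 4 UMIs and 1 UMI. Itgam was at 6 and 0 UMIs and Il5ra, the interleukin-5 receptor, at 10 and 3 UMIs.

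Most of these UMIs lay in the S100a6-positive members. Their summed B-1 level, which includes S100a6 itself, was 6843 CPM on WD and 5949 CPM on chow, against 423 and 476 CPM in other B cells. In the remaining members it was 510 CPM on WD and 700 CPM on chow. Of the 23 Zbtb32 UMIs in WD members 20 lay in S100a6-positive cells, and all 12 on chow did. All 120 Tppp3 UMIs in WD members and 10 of 16 on chow also lay there. Mzb1 was shared more evenly, at 633 CPM in WD and 645 CPM in chow S100a6-positive members and 745 and 672 CPM in the remaining ones. The remaining members were shallower, with a median of 2709.5 UMIs on WD and 3334 on chow. They too had to hold at least 2 UMIs of the rule genes, so their Mzb1 level is partly set by the rule. Vim reached 2294 CPM on WD and 1559 CPM on chow in S100a6-positive members, Lmna, a lamin, 658 and 663 CPM, and Ccnd2, a cyclin used by B-1 cells, 302 and 305 CPM.

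Further genes also differed between these cells and the other B cells. Fcer2a, which encodes the IgE receptor CD23, was at 54.4 CPM on WD and 17.9 CPM on chow in S100a6-positive members, against 223 and 306 CPM in other B cells. Cr2, which encodes CD21 and is highest in marginal zone cells, was read with 1 UMI in the 31 WD and 0 UMIs in the 10 chow S100a6-positive members. Plac8, a small cysteine-rich protein gene of the marginal zone list, reached 2764 CPM on WD and 3225 CPM on chow, against 1028 and 859 CPM. Il10, which encodes an inhibitory cytokine of B cells, was scarce: 9 UMIs in 3 WD cells and 1 UMI on chow, and 0 in the other B cells of both libraries.

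Genes of other cell types were also read in the S100a6-positive members. S100a6 itself stood at 621 CPM in WD and 500 CPM in chow T cells and at 1013 and 968 CPM in macrophages, and Vim, Lgals1 and Anxa2 were likewise read in both. The summed T cell list (11 genes, Cd3 genes not among them) was at 796 CPM on WD and 806 CPM on chow, against 374 and 417 CPM in other B cells. The summed NK cell list (7 genes) was at 1043 CPM on WD and 17.9 CPM on chow, against 26.8 and 38.3 CPM. The summed macrophage list (7 genes) was at 39.6 and 17.9 CPM, against 7.05 and 17 CPM. The summed neutrophil list (4 genes) was at 1968 CPM on WD and 0 UMIs on chow, against 16.9 and 4.25 CPM, and 1 WD cell alone held 3 or more of its UMIs. The summed list of free myeloid RNA (5 genes) was at 712 and 591 CPM, against 279 and 302 CPM. The summed immediate early and dissociation list (12 genes) was at 7580 and 8332 CPM, against 5850 and 5875 CPM. Listed at 0 in them were 3 T cell, 3 NK cell and 3 macrophage genes on WD and 6 of each list on chow. These cells held a median of 6344 UMIs on WD and 5790 on chow. On WD, Ccl5 gave 188 UMIs in 8 S100a6-positive members, and 139 Ccl5 UMIs lay in 1 cell. Of the NK cell list, Ncr1, Klrb1c and Prf1 were at 0 in the S100a6-positive members of both libraries. The rest of the list was read on WD, and the list summed to 211 UMIs there, Ccl5 included. The part of depth, doublets or free RNA in the S100a6 pattern was not tested.

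**Figure D4:**
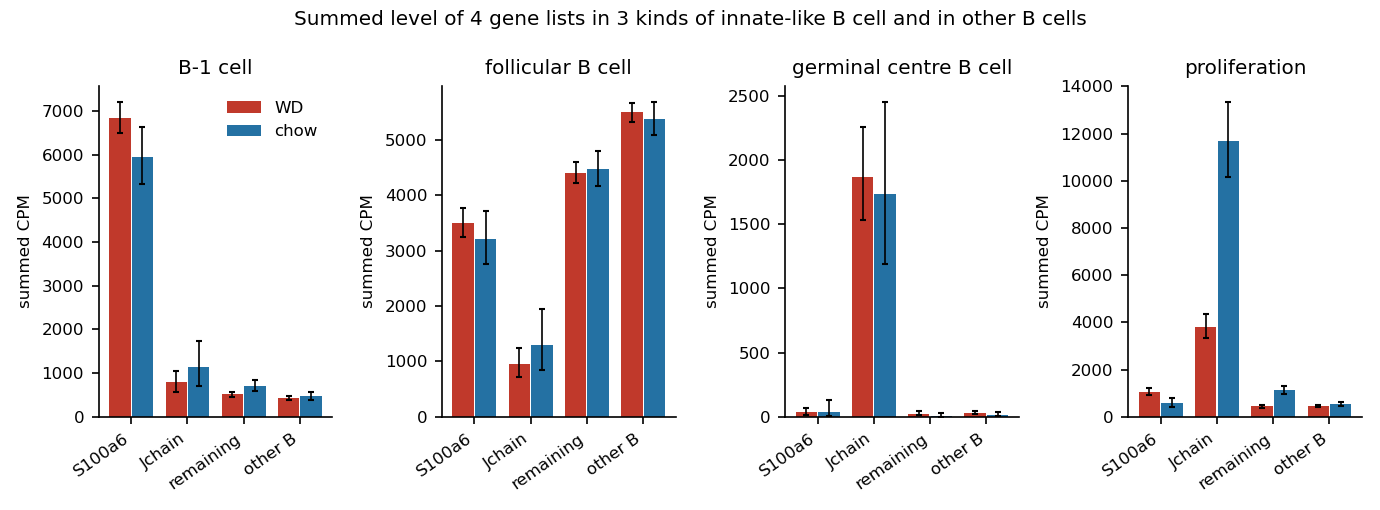
Summed level of 4 gene lists (panels) in S100a6-positive, Jchain-positive and remaining innate-like B cells and in other B cells, in CPM, with the WD library in red and the chow library in blue and exact Poisson 95% intervals. The B-1 list is highest in S100a6-positive cells (6843 CPM on WD, 5949 CPM on chow), and the germinal centre and proliferation lists in Jchain-positive cells. In the remaining chow members the B-1 (700 CPM) and proliferation (1126 CPM) lists lie above the other B cells (476 and 523 CPM). Of these 49 chow cells, 1 held at least 10 proliferation UMIs. In the remaining WD members the proliferation list was at 436 CPM, against 465 CPM in other WD B cells.

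The Jchain-positive members were few, deep and rich in germinal centre and cell cycle genes. Jchain summed to 77 UMIs in 6 WD members (103 CPM) and 21 UMIs in 2 chow members (83.1 CPM), against 2 and 0 UMIs in other B cells. With the 7 Jchain-positive cells removed, a set chosen by this gene, its WD log2 ratio was −0.71. Gcsam, a germinal centre gene, had 11 UMIs on WD and 8 on chow in the Jchain-positive members. Their summed germinal centre list (8 genes) was 1867 CPM on WD and 1738 CPM on chow, against 29.6 and 12.8 CPM in other B cells. They held 4231 to 19946 UMIs on WD, and 7406 and 11002 UMIs on chow. Of the plasma cell genes, Tnfrsf17 was at 0 UMIs in all B cells, Sdc1 and Prdm1 at 0 UMIs in them, and Xbp1 at 4 UMIs on WD and 3 on chow.

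The plasma cell list as a whole had 9 genes, of which 6 passed the filter, and all 6 were higher in members in both libraries, against 33.5% of all genes; Jchain passed through the members alone and Slamf7 and Ell2 had 8 and 6 UMIs in chow other B cells, so the count is no support. Only Jchain was so by 2-fold in both. Ell2, a transcription elongation factor used for secreted antibody mRNA, stood at a log2 ratio of 0.67 on WD and 1.25 on chow, Slamf7, a surface receptor, at 0.30 and 1.30, and Sec11c, a signal peptidase subunit, at 0.19 and 0.36. Xbp1, the regulator of secretory capacity, stood at 0.27 and 0.02, and Irf4, a plasma cell regulator, at 0.10 and 0.06. Of 13 measured endoplasmic reticulum folding and secretion genes 3 were higher and 4 lower in both libraries.

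Cycling cells were read among the members. At least 10 UMIs of the proliferation list were held by 7 WD and 3 chow members and by 0 of 300 WD and 0 of 86 chow other B cells. The counts are small, and the members' greater depth makes 10 UMIs easier to reach. Summed over its 12 genes, the proliferation list stood at 868 CPM in WD and 1772 CPM in chow members, against 465 and 523 CPM in other B cells. Of the 5 genes that passed the filter, Birc5, Top2a and Stmn1 did so through the members, so their medians only describe: 1.59 on WD and 2.66 on chow, 0.56 and 1.10 at 1500 UMIs per cell, and 0.10 and −0.78 without the cycling cells. Birc5, a mitotic gene, had 24 UMIs in 4 WD members and 22 UMIs in 3 chow members, against 0 and 1 UMIs in other B cells. Top2a, a DNA topoisomerase of dividing cells, had 20 and 30 UMIs, against 6 and 4.

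Genes of follicular B cells were on balance lower in the members. Of 15 list genes, all measured, 9 were lower in both libraries, against 27.6% of all genes, and the median log2 was −0.52 on WD and −0.37 on chow (−0.46 and −0.23 at 1500 UMIs per cell). None was so by 2-fold in both. Fcer2a was read with 86 UMIs in 57 WD members (115 CPM) and 35 UMIs in 22 chow members (138 CPM), against 223 CPM in WD and 306 CPM in chow other B cells. The log2 ratios were −0.95 on WD and −1.13 on chow, and −0.47 and −0.21 at 1500 UMIs per cell. Satb1, a chromatin organizer, stood at −1.03 and −0.67. Ccr7, the homing receptor for lymph nodes, stood at 896 CPM in WD and 870 CPM in chow members, against 1271 and 1399 CPM. Cxcr5, the follicle homing receptor, and Foxp1, a transcription factor of mature B cells, were higher in both, at 0.22 and 0.32 for Cxcr5 and 0.02 and 0.12 for Foxp1.

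The marginal zone list gave no common direction. Of its 12 genes 5 were measured, of which 2 were higher and 2 lower in both libraries. Plac8 stood at 1825 CPM in WD and 1887 CPM in chow members, against 1028 and 859 CPM. Cr2 was at 60.3 and 43.5 CPM, against 73.3 and 106 CPM, and S1pr1, a receptor that holds cells in the marginal zone, at 186 and 146 CPM, against 188 and 191 CPM. Dtx1, a target of Notch, stood at log2 0.25 and 0.86 and Hes1, another such target, at −0.11 and 0.30.

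Antigen presentation genes of MHC class II were lower in a uniform way. All 10 measured genes of the list of 11 were lower in members in both libraries, against 27.6% of all genes, none by 2-fold, with a median log2 of −0.36 on WD and −0.34 on chow. At 1500 UMIs per cell the medians were −0.21 and −0.23. Cd74, the invariant chain, stood at 21108 CPM in WD and 21677 CPM in chow members, against 28358 and 29334 CPM in other B cells. H2-Aa stood at 5505 and 5598 CPM, against 6738 and 7372 CPM, and H2-Ab1 at 4312 and 4550 CPM, against 5860 and 6071 CPM. Both kinds of marked cell lay lowest: Cd74 was at 15496 CPM on WD and 19317 CPM on chow in S100a6-positive members and at 10976 and 12820 CPM in Jchain-positive ones. In the remaining members it was at 24636 and 23327 CPM.

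**Figure D5:**
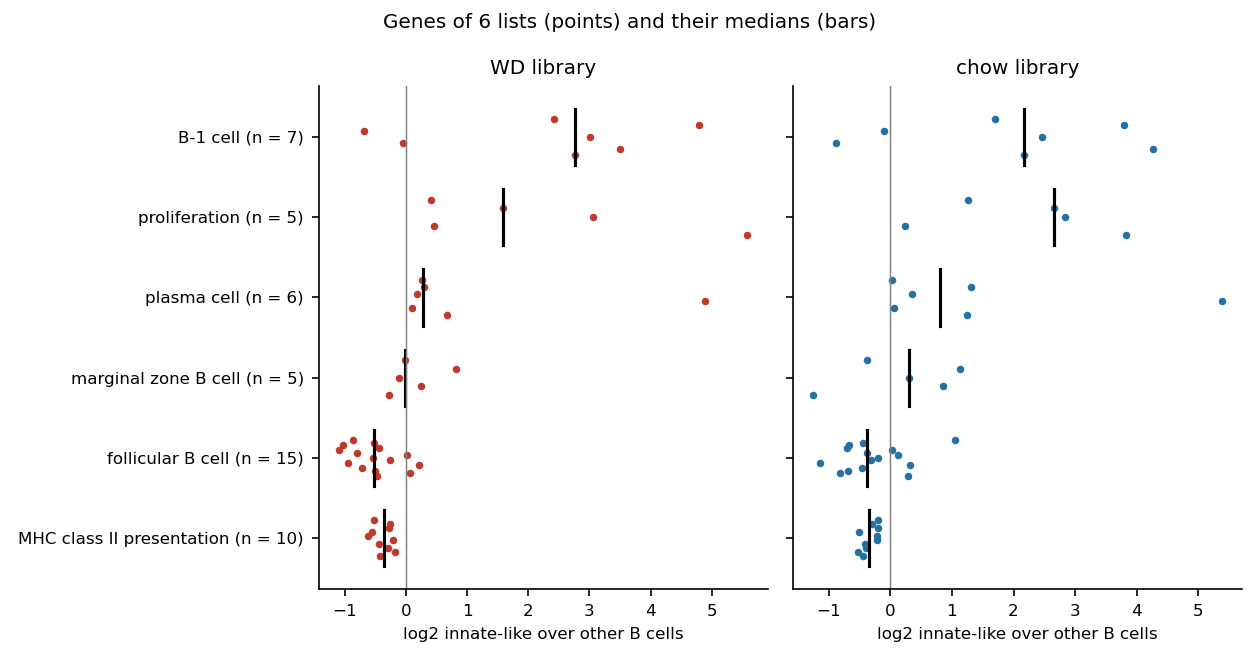
Log2 ratio of innate-like over other B cells for the measured genes of 6 lists (points) with the median of each list (black bars), in the WD library (left) and the chow library (right). B-1 and proliferation medians lie above 1 in both libraries, over genes that passed the filter largely through the members, and follicular and MHC class II medians lie below 0.

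Of B cell receptor signalling genes 4 of 14 were higher and 5 lower in both libraries, none by 2-fold. Cd24a, a surface sialoglycoprotein, stood at log2 0.45 on WD and 0.73 on chow, Blk, a Src family kinase, at 0.52 and 0.50, and Cd22, an inhibitory receptor, at −0.41 and −0.61. Among activation genes Ccnd2 alone was at least 2-fold higher in both, at 1.92 and 1.32. Hspa1a, a heat shock gene induced by tissue dissociation, was the lowest of the genes lower in both libraries, with 72 UMIs in 18 WD members and 32 UMIs in 10 chow members, against 459 UMIs in 36 and 136 UMIs in 17 other B cells. Its log2 ratios were −2.74 and −2.17. It did not speak for its list: of 11 measured immediate early and dissociation genes 3 were higher and 4 lower in both libraries, Atf3 was at least 2-fold higher in both, and the median was −0.05 on WD and 0.40 on chow. Ccl4, a chemokine of activated B cells and macrophages, had 85 and 8 UMIs in members, against 228 and 16.

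For the effect of diet, WD members were set against chow members, 1 library each, so diet cannot be told apart from library. Across 6145 genes with at least 10 UMIs in members, 88 (1.43%) were at least 2-fold higher on WD and 185 (3.01%) at least 2-fold lower with a counting interval on 1 side of 1. With mitochondrial and ribosomal genes taken out of the totals the counts were 106 and 144. The interval treats UMIs as independent, and cells in which a gene is concentrated break this.

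The 8 highest genes on WD included single-cell signals. S100a8, a neutrophil alarmin, had 233 UMIs in 13 WD members and 0 in chow members, at least 26.3-fold higher against the limit of 3 counts, but 221 of the 233 lay in 1 cell, which leaves 12. S100a9, its partner, had 157 UMIs in 6 WD members, 152 of them in 1 cell, which leaves 5, and 0 in chow members. The other 6 were Mt1, a metallothionein, Rpusd4, Nudt5, Ifitm2, Fam117b and Klf10, each with 22 to 34 UMIs in WD and 0 or 1 UMI in chow members. Ifitm2 had 20 of its 33 UMIs in 1 WD cell.

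The 8 lowest genes on WD were largely of the cell cycle: Mki67, H2afx, Nusap1, Kpna2, Incenp, Racgap1 and Top2a, with Gm26917 besides. Mki67, the proliferation antigen, had 5 UMIs in 4 WD members and 20 UMIs in 5 chow members (log2 −3.38). H2afx, a DNA damage histone, had 22 UMIs in 14 WD members and 76 UMIs in 11 chow members, of which 32 lay in 1 cell (log2 −3.31). Of 12 proliferation genes 11 were lower on WD, against 52.3% of all genes. By 2-fold with a counting interval on 1 side of 1, 7 were lower, against 3.01%. The median was −1.38 in members and −1.33 in other B cells. Several of these genes held few UMIs in other B cells: Birc5 had 0 on WD and 1 on chow, and Top2a 6 and 4. The summed list in other B cells stood at 465 CPM on WD (417 to 518) and 523 CPM on chow (435 to 624), and these intervals overlapped. Cycling members numbered 7 of 190 on WD and 3 of 61 on chow. Without them Top2a stood at 0.021 and Incenp at 0.019, and 104 genes in place of 185 were lower by 2-fold. Cycling cells were chosen by their proliferation UMIs, so the values of such genes without them are partly set by that choice.

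Most rule genes and S100a6 stood close in both diets. Members of both libraries were chosen by the same minimum of the rule genes, so the closeness of those genes is partly set by the rule. Mzb1 stood at 729 CPM in WD and 724 CPM in chow members (log2 0.01), and S100a6 at 681 and 617 CPM (0.14). Fam43a stood at 204 and 218 CPM (−0.09) and Ankrd33b at 135 and 103 CPM (0.39). Tppp3 was at 161 CPM in WD and 63.3 CPM in chow members (1.33, ratio interval 1.5 to 4.59), and Zbtb32 at 30.8 and 47.5 CPM (−0.61, 0.310 to 1.43). The intervals treat UMIs as independent, and 21 of the 120 Tppp3 UMIs on WD lay in 1 cell. Of the 14 B-1 genes that could be measured in this comparison, none differed by 2-fold with a counting interval on 1 side of 1. Of them 10 were higher on WD, against 47.7% of all genes, and 4 lower, with a median of 0.15. The 12 immediate early genes were all lower on WD, against 52.3% of all genes, and 1 of them by 2-fold with such an interval. Their median was −0.45 in members and 0.23 in other B cells.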

How the data were processed

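The deposited files are 1 matrix of raw UMI counts per diet. The authors made these counts with Cell Ranger and STAR on mm10, per the submitters' processing notes, which name no versions. The extract protocol in the labels gives cells of 10 aortas pooled per library. Gene IDs were matched to GENCODE M21 (27645 of 27998). Counts were summed over the cells of each group and library and scaled to 1000000 UMIs (CPM); log2 ratios used 0.5 added UMIs, in proportion to each group's total; intervals are 95% exact Poisson, conditional binomial or Clopper-Pearson and cover counting error only. Genes named in the text are the 5 rule and 3 gate genes, the 15 highest and 12 lowest of innate-like over other B cells (same sign in both libraries), the 8 highest and 8 lowest of WD over chow, and members of 32 lists; genes under the filter are named with their UMIs, and Il10, Gcsam, Cd5 and other such genes were picked after their values were seen. The members, lists and tests were chosen with earlier results of these data known. Scrublet (scanpy 1.11.5) looked for doublets, and no doublets were removed. Neighbours used 10 principal components. Ratios and intervals were tested on simulated data with independent Poisson counts. These leave out the concentration of UMIs in single cells, so that case was not tested. Immunoglobulin isotypes were not analysed here. Alternatives changed the limits, depth, filters, scaling and rule genes.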

Additional observations from a re-analysis of the deposited data

Results flagged for a closer look

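Among the genes named for WD over chow, 5 were at least 2-fold apart between innate-like and other B cells in opposite directions in the 2 libraries; the difference was not tested. S100a9 stood at a log2 ratio of innate-like over other B cells of 4.77 on WD and −1.62 on chow. Mt1 stood at 2.38 on WD and −2.36 on chow, and Rpusd4 at 1.17 and −3.22. Nudt5 stood at 1.18 on WD and −2.59 on chow, and Klf10 at 2.03 and −1.30. Each had 0 or 1 UMI in chow members and at most 8 in other chow B cells, so the chow values rest on few counts. The genes had been picked for a high ratio of WD over chow members, so a low chow value follows partly from that pick. For S100a9, 152 of the 157 UMIs in WD members lay in 1 cell. Ratios with a group at 0 UMIs are set by the added 0.5 UMIs and are no bounds.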

How the results depend on the processing

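No paired analysis was possible because each diet has 1 library and no result comes from a test. The share of B cells that are innate-like was 26.8% on WD and 27.1% on chow at 3 or more UMIs, 16.2% and 18.1% at 5 or more (chosen after seeing the data), 21.9% and 19.0% at 1500 UMIs per cell, 14.1% and 10.9% without Mzb1 in the rule, 31.6% and 32.0% without Fam43a, and 30.7% on chow with no T cell or macrophage UMI allowed. The 33 genes at least 2-fold higher became 5 with no such UMI allowed, 5 when cells were also chosen at 1500 UMIs, 6 with counts thinned to 1500, 100 and 13 with filters of 10 and 40 UMIs, and, chosen after seeing the data, 68 at 5 or more UMIs, 20 without the Jchain-positive members and 16 without cycling cells. The 3 genes at least 2-fold lower became 7 at 3 or more UMIs, 39 at 5 or more, 34 without Mzb1, 8 without Fam43a, 1 when chosen at 1500 UMIs, and 11 and 1 with the filters of 10 and 40. The 88 genes higher on WD became 56 with no T cell or macrophage UMI, 23 and 44 at 1500 UMIs (cells chosen so, or counts only) and 55 without Mzb1; the 185 lower became 45 and 82 at 1500 UMIs and 104 without cycling cells. Fewer genes pass the filter in the thinned and stricter settings. The share of measured genes called at least 2-fold higher in members also fell, with counts thinned to 1500 and with no T cell or macrophage UMI allowed.

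Directions turned as follows (log2). With cells chosen at 1500 UMIs, Jchain and Birc5 stood at −2.23 on chow, Cks2 at −0.84 and Ube2c at −1.19 on WD, Plk2 at 0.71 on chow, and, WD over chow, Ifitm2 at −1.35 and Incenp at 1.18. With counts thinned, Ube2c stood at −1.40 on WD and Incenp at 1.22. Without cycling cells, 2810417H13Rik, Birc5 and Ube2c stood at −1.56 and Stmn1 at −1.01 on chow, and, WD over chow, Incenp at 0.019 and Top2a at 0.021. Jchain stood at −0.71 on WD without Jchain-positive members. Values of genes at 0 UMIs in a group are set by the added 0.5 UMIs. The causes were not tested, except that cells holding the gene were removed in the last 2 settings. Centring on the median gene changed no direction of the 70 values.

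With 1 library per diet, no spread between animals can be given. Members are deeper than other B cells, and few hold Zbtb32, Tppp3 or Jchain.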
